A study of Mus musculus with 4 samples.

Results

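Cadherins and protocadherins are calcium-dependent adhesion proteins of the cell surface, and 70 of their genes were followed across the cell types of the embryonic mouse nose. The genes taken were all those whose symbol begins with Cdh and a digit or with Pcdh, apart from Cdh19, with at least 50 UMIs over the retained cells of the 4 libraries. A UMI (unique molecular identifier) is a random tag that marks 1 captured RNA molecule. Of 32285 annotated features, 91 carried such a symbol, 70 reached the minimum and 1, Pcdha2, had no UMI. The member nearest to the minimum was Pcdhb10 with 55 UMIs, and the gene nearest below it was Pcdhb12 with 48.

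Whole noses at embryonic day 14.5 were dissociated with papain, frozen and profiled by droplet sequencing of the 3′ ends of transcripts (10x Genomics), in 2 control and 2 mutant libraries. The study asked what the loss of YAP and TAZ, paired transcriptional co-activators, does in cells of neural crest origin. The sample labels give the mutants the transgene Tg(Sox10-cre)1Wdr with Yapflox and Tazflox on C57Bl/6J. The series design gives them Sox10cre, Taz floxed on both chromosomes and Yap on 1 of the pair, the other being WT. The sample labels give the controls as WT on C57Bl/6J, whereas the series design gives both Yap and both Taz alleles floxed without Cre, and the disagreement was not resolved here. Cre is driven by the Sox10 promoter, which is active in neural crest and its glia, while endothelium, macrophages and surface epithelium arise from other lineages. The labels speak of 2 noses per genotype. The p-values rest on the spread between these libraries, which may be in part technical. The edgeR fits estimate that spread in part from all genes together. A very small p-value is therefore no measure of how well a single gene was replicated. More than 1 sequencing provider is named without being assigned to libraries, and the protocol counts 5 samples, of which the fifth was not analysed here.

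Classical cadherins of types I and II bind cadherins on the next cell through their outer domains and are tied to actin inside the cell through catenins. Protocadherins lack that link; the non-clustered delta protocadherins help to sort and position cells, and the alpha, beta and gamma clusters give neurons combinatorial surface labels. In the developing head, neural crest cells exchange some cadherins for others as they leave the epithelium, and different cadherins then mark epithelium, vessel wall, muscle, bone and glia.

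The libraries kept 4075, 2474, 2995 and 4195 cells in control 1, control 2, mutant 1 and mutant 2, the order used for all values in 4 libraries, with 19767873 to 35331450 UMIs. A pair of libraries shared 4 to 8 cell barcodes. Cells were assigned to classes by marker lists that hold no cadherin, and levels are given as CPM, the UMIs of a gene scaled to 1000000 UMIs of its class in a library. Yap1 over all retained cells was at 64.98 and 65.2 CPM (controls) and 56.4 and 55.96 CPM (mutants), and Wwtr1 (Taz) at 118 and 145 CPM (controls) and 123 and 132 CPM (mutants). The Yap1 values of mutants lay below those of controls, and the Wwtr1 values overlapped. In glia, where Sox10 is expressed, Yap1 stood at 63.2 and 55.5 CPM (controls) and 43.6 and 58.1 CPM (mutants) and Wwtr1 at 208 and 194 CPM (controls) and 244 and 305 CPM (mutants), so that Yap1 overlapped and Wwtr1 was higher in both mutants. Counts at 3′ ends outside the floxed exons do not check the deletion. Levels are compared for 1 gene across classes and not between genes, since 3′ counts are not scaled for capture or length.

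The members were 5 type I cadherins, 12 type II cadherins, 3 other cadherins, 4 delta-1 and 5 delta-2 protocadherins, 3 other non-clustered protocadherins, and 19 genes each of the beta and gamma clusters. None of the 14 alpha cluster symbols reached the minimum. Delta-1 protocadherins took 36.7% of all UMIs of the 91 symbols and type II cadherins 34.4%. Chromosome 18 carried 41 of the 70 members. Combinations differed between cell types. At a mean of at least 50 CPM, mesenchyme held 10 members, olfactory epithelium 7, glia, endothelial and mural cells 6 each, and suprabasal keratinocytes and periderm 2 each. Macrophages held 0, and the members together came to 45.5 CPM there against 2599 CPM in mesenchyme. Each of 20 classes was compared with the rest (edgeR with the library as block, adjusted p below 0.05). The rest is all other gated cells, or for a subtype of mesenchyme all other mesenchyme.

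**Figure D1:**
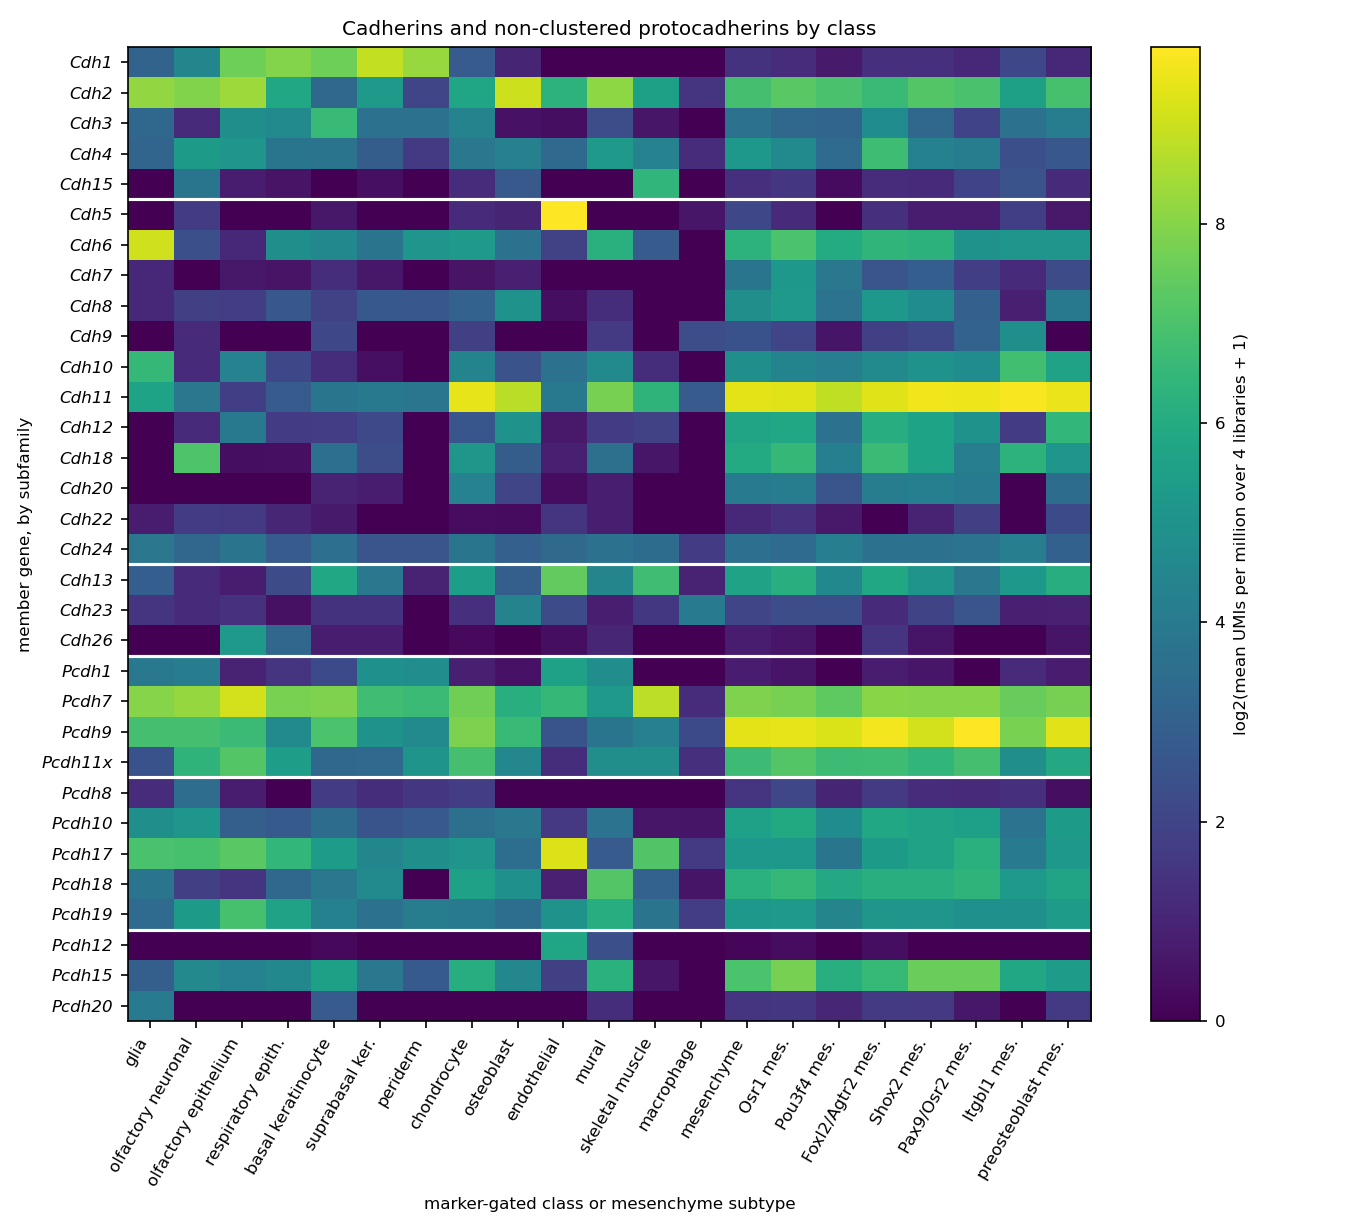
Mean level of the members outside the protocadherin clusters (vertical, grouped by subfamily) in cell classes and mesenchyme subtypes (horizontal), as log2 of the mean CPM over the 4 libraries plus 1. Each line is read across; Cdh5 reached 876 CPM in endothelial cells and Cdh6 543 CPM in glia, whereas macrophages stayed low for nearly all members.

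The epithelial cadherin Cdh1 (E-cadherin), which seals epithelial sheets, was higher in each of the 4 tested epithelial classes than in the rest. It stood at 440.4, 351, 511 and 566 CPM in suprabasal keratinocytes, against a mean of 28.3 CPM in the rest (log2 difference 4.09 ± 0.16, edgeR adjusted p = 1.27e-16; ± is the standard error). In periderm, the outer layer of embryonic skin, it was at 279.8, 365, 323 and 259 CPM (log2 difference 3.15 ± 0.24, edgeR adjusted p = 3.62e-17). Respiratory epithelium held 242, 266, 240.4 and 244 CPM (2.69 ± 0.14, edgeR adjusted p = 9.87e-77). Every library of these classes lay above the mean of the rest. Basal keratinocytes held 219, 166, 218 and 181 CPM (3.16 ± 0.13, edgeR adjusted p = 3.95e-09). P-cadherin, Cdh3, a cadherin of basal epithelial layers, was beside it at 92.7, 122, 92.9 and 79.6 CPM, against 11.5 CPM in the rest (3.13 ± 0.11, edgeR adjusted p = 1.52e-09). Cdh1 had a larger p-value in basal keratinocytes than in respiratory epithelium, although its difference was larger and its standard error smaller. Sizes of p are therefore not compared between classes. Olfactory epithelium, with 3 gated cells in control 2 and so not tested, held Cdh1 at 187, 226, 186 and 189 CPM together with N-cadherin, Cdh2, at 308, 411, 289.9 and 297 CPM. In basal keratinocytes, by contrast, Cdh2 was at 8.73 CPM against 127 CPM in the rest (-3.69 ± 0.16, edgeR adjusted p = 6.36e-09).

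Epithelia held fewer members above the rest than below it. Basal keratinocytes had 3 of 54 tested members higher than the rest and 22 lower, beside 22.3% and 26.0% of all genes. Suprabasal keratinocytes had 2 of 51 tested members higher than the rest and 22 lower, beside 13.5% and 23.9% of all genes. Periderm had 2 of 49 tested members higher than the rest and 19 lower, beside 8.24% and 16.6% of all genes, and respiratory epithelium had 5 of 55 tested members higher than the rest and 25 lower, beside 16.3% and 25.6% of all genes. Shares of higher members thus lay below the shares of all genes in each of these 4 classes. Pcdh1, a delta-1 protocadherin of epithelia, was higher in suprabasal keratinocytes at 19.96, 17.6, 39.5 and 39.5 CPM (3.26 ± 0.41, edgeR adjusted p = 5.45e-07). Pcdh20 was higher in basal keratinocytes at 4.65 to 7.81 CPM (2.03 ± 0.36, edgeR adjusted p = 6.28e-04). Cdh26 was higher in respiratory epithelium at 4.42, 0, 11.04 and 17.7 CPM (2.61 ± 0.47, edgeR adjusted p = 2.31e-07), and so was the X-linked Pcdh19 at 75.2, 0, 65 and 56.6 CPM (0.87 ± 0.19, edgeR adjusted p = 3.25e-05). Both were at 0 in control 2, which had 5 such cells.

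N-cadherin, Cdh2, is the classical cadherin of mesenchymal and neural cells, and of the tested classes osteoblasts held it at the highest mean. There it stood at 479, 524, 541 and 536 CPM against 108 CPM in the rest (2.49 ± 0.09, edgeR adjusted p = 3.02e-22). Olfactory epithelium followed at 327 ± 56.9 CPM (SD, n = 4 libraries), glia at 290.4 ± 85.3 CPM, mural cells at 279 ± 152 CPM and the olfactory neuronal lineage at 240.2 ± 31.7 CPM. Osteoblasts did not overlap olfactory epithelium. They did overlap mural cells, since mural control 2, at 495 CPM, lay above the lowest osteoblast library, at 479 CPM. The ranges of neighbours from olfactory epithelium to the neuronal lineage overlapped. The mural mean pooled the genotypes, although both mutant libraries lay below both control libraries there. In glia the difference from the rest was 1.21 ± 0.15, edgeR adjusted p = 1.02e-09. In mural cells, the pericytes and smooth muscle of vessels, it was 1.19 ± 0.17, edgeR adjusted p = 1.23e-08. In the neuronal lineage it was 0.66 ± 0.22, edgeR adjusted p = 0.00907, which was lost without control 1 (edgeR adjusted p = 0.0763) or mutant 2 (edgeR adjusted p = 0.0752).

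The neuronal lineage had 7 of 51 tested members higher than the rest and 14 lower, beside 13.6% and 24.2% of all genes. Cdh18, a brain cadherin, was at 149, 34.2, 277 and 81.3 CPM there (1.25 ± 0.26, edgeR adjusted p = 9.17e-06), and without mutant 1 the difference was 0.66 (edgeR adjusted p = 0.150). Pcdh17, a delta-2 protocadherin of neurons, was at 202, 22.8, 117 and 144 CPM (0.77 ± 0.26, edgeR adjusted p = 0.0106), and without control 1 the difference was 0.32 (edgeR adjusted p = 0.515). Without mutant 2 Pcdh17 also missed the threshold (edgeR adjusted p = 0.0512). The call of Cdh2 in the neuronal lineage was also lost without control 1 or mutant 2, with differences over the libraries left out in turn of 0.57 to 0.76.

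Osteoblasts, the matrix-making bone cells, had 3 of 52 tested members higher than the rest and 20 lower, beside 14.6% and 18.9% of all genes. Beside Cdh2 the higher ones were Cdh23, at 22.5, 19.9, 28.7 and 7.97 CPM (2.94 ± 0.42, edgeR adjusted p = 5.88e-07), and Cdh8, at 31.7, 0, 66.2 and 27.1 CPM (0.84 ± 0.27, edgeR adjusted p = 0.0155). Cdh8 was lost without mutant 1 (log2 difference 0.43, edgeR adjusted p = 0.235). Cdh11, also known as OB-cadherin, was at 443, 538, 336 and 437 CPM in osteoblasts and did not pass (-0.02 ± 0.09, edgeR adjusted p = 0.908). Pcdh9, a delta-1 protocadherin, was at 94.4 CPM in osteoblasts and at 507 CPM in the rest (-2.32 ± 0.13, edgeR adjusted p = 1.08e-16). Chondrocytes, the cartilage cells, had 1 of 55 tested members higher than the rest and 15 lower, beside 9.54% and 12.2% of all genes. The higher one was Cdh11 at 579.6, 923, 670.1 and 546 CPM (0.42 ± 0.07, edgeR adjusted p = 1.81e-04).

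Skeletal muscle had 4 of 49 tested members higher than the rest and 21 lower, beside 13.0% and 24.4% of all genes. M-cadherin, Cdh15 (ENSMUSG00000031962, chromosome 8, 122847966 to 122867397, plus strand, GRCm38), which joins muscle precursors before they fuse, was at 116, 62.1, 93.99 and 67.4 CPM in muscle and at 1.39 CPM in the rest (6.27 ± 0.48, edgeR adjusted p = 2.08e-37). Pcdh17 was at 114, 197, 93.99 and 150.4 CPM (1.45 ± 0.17, edgeR adjusted p = 5.61e-17). Cdh13, a cadherin anchored to the membrane by a lipid, was at 85.8, 138, 102 and 114 CPM (1.36 ± 0.19, edgeR adjusted p = 3.38e-12). Of these 3, Cdh15 alone was near 0 outside muscle.

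Endothelial cells, which line vessels, had 5 of 56 tested members higher than the rest and 22 lower, beside 17.7% and 25.7% of all genes. VE-cadherin, Cdh5 (ENSMUSG00000031871, chromosome 8, 104101625 to 104144511, plus strand, GRCm38), the cadherin of endothelial junctions, stood at 864, 858, 1017 and 764 CPM against 2.61 CPM in the rest (8.63 ± 0.31, edgeR adjusted p = 9.31e-16). Pcdh12, a protocadherin of vessel junctions, was at 65.3, 47.4, 52.1 and 45.5 CPM against 0.128 CPM (8.69 ± 0.45, edgeR adjusted p = 4.69e-13). Pcdh1 was at 43.6, 39.5, 59.3 and 48.95 CPM against 2.15 CPM (4.56 ± 0.27, edgeR adjusted p = 4.53e-12). The other higher members were Pcdh17 at 499.9, 504, 841 and 576 CPM and Cdh13 at 181, 144, 196 and 158 CPM. Each of these 5 was above the rest in all 4 libraries.

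Glia, which in the nose are chiefly the Sox10-positive cells along the olfactory nerve, had 6 of 49 tested members higher than the rest and 15 lower, beside 7.37% and 13.1% of all genes. The type II cadherin Cdh6 (ENSMUSG00000039385, chromosome 15, 13028701 to 13173675, minus strand, GRCm38), known from early neural crest and kidney, was at 337, 943, 369 and 523 CPM in glia and at 61.7 CPM in the rest (2.97 ± 0.15, edgeR adjusted p = 1.63e-24). Control 2 stood highest, and the other 3 libraries were each above the rest. Cdh10, a type II cadherin of brain, was at 47.4, 129, 63.9 and 123 CPM in glia (1.86 ± 0.25, edgeR adjusted p = 1.86e-08). Since glia were gated on Sox10 among other genes, the 250 bases before the Cdh6 start (RefSeq, GRCm38.p6, chr15:13173676-13173925, minus strand) are shown, with the match to the Sox-type motif ACAANG in capitals, 52 bases before the start.
Cdh6: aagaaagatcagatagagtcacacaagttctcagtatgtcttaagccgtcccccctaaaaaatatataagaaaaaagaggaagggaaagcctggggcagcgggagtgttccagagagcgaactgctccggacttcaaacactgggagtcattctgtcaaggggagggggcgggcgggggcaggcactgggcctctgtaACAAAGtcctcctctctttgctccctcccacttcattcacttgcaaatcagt
A promoter entry matched 22 of the 70 members. ACAANG, searched on both strands, was in 9 of these 22 and in 36.3% of all 32851 promoter windows. The E-box CAGCTG was in 2 of the 22 and in 13% of all windows, and the ETS-type motif GGAAGT in 2 and in 19.7%. A member counted if any of its windows matched, while the percentages count single windows, so these shares are in unlike units. A match is a run of letters, not a measured site.

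Mesenchyme, with 1806 to 2754 cells a library, had 27 of 63 tested members higher than the rest and 9 lower, beside 28.5% and 30.4% of all genes. Cdh7, a type II cadherin known from migrating neural crest, was at 9.11, 10.3, 18.8 and 13.99 CPM and at 0.694 CPM in the rest (4.21 ± 0.19, edgeR adjusted p = 6.30e-07). Cdh12, another type II cadherin, was at 46.9, 48.1, 53.1 and 57.9 CPM against 5.53 CPM (3.17 ± 0.15, edgeR adjusted p = 7.09e-07). Pcdh9 was at 598, 678, 714 and 676 CPM against 90.8 CPM (2.90 ± 0.08, edgeR adjusted p = 8.99e-08). These 3 had the largest differences among members past the threshold with at least 20 UMIs. Cdh11, a cadherin of loose mesenchyme, was at 612, 756, 632 and 683 CPM against 145 CPM (2.25 ± 0.10, edgeR adjusted p = 4.88e-07). Cdh2 did not pass at 119 CPM against 116 CPM (0.07 ± 0.12, edgeR adjusted p = 0.655), and Cdh1 was at 1.73 CPM against 116 CPM (-6.07 ± 0.16, edgeR adjusted p = 6.46e-08).

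Subtypes of mesenchyme were set apart by regional factors and compared with all other mesenchyme. Of 9415 mesenchymal cells, 2599 met several subtype gates and 2751 met none, and these were given no subtype. They stayed in the other mesenchyme, which can therefore hold cells with UMIs of a subtype's own marker. Osr1 cells had 10 of 54 tested members higher than the rest and 2 lower, beside 3.15% and 3.91% of all genes. Cdh7 stood at 28.9, 28.1, 49.05 and 37.9 CPM in Osr1 cells against 9.01 CPM (2.01 ± 0.11, edgeR adjusted p = 2.01e-07). Pcdh15, known from the tip links of hair cells in the inner ear, was at 289, 122, 234 and 222 CPM (0.93 ± 0.13, edgeR adjusted p = 6.91e-04), and Cdh6 at 120.0, 97.2, 146 and 144 CPM (0.84 ± 0.09, edgeR adjusted p = 3.60e-05). Foxl2/Agtr2 cells had 4 of 50 tested members higher than the rest and 0 lower, beside 3.21% and 2.40% of all genes. Cdh4 (R-cadherin; ENSMUSG00000000305, chromosome 2, 179442431 to 179899373, plus strand, GRCm38), a type I cadherin, led them at 102, 88.9, 133 and 95.8 CPM against 31.4 CPM (1.78 ± 0.16, edgeR adjusted p = 4.01e-06). Cdh3 was at 18, 37.2, 26.3 and 21.7 CPM (1.28 ± 0.19, edgeR adjusted p = 5.63e-04) and Cdh18 at 121, 76.5, 106 and 96.99 CPM (0.82 ± 0.13, edgeR adjusted p = 6.21e-04). Both subtypes also held Pcdh9, at means of 678 CPM and 782 CPM, and Cdh11, at 626 CPM and 628 CPM.

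Pou3f4 cells had 0 of 48 tested members higher than the rest and 14 lower, beside 9.03% and 12.2% of all genes. Cdh11 was at 379, 591, 444 and 418 CPM there, against 679 CPM (-0.56 ± 0.07, edgeR adjusted p = 1.63e-08). Itgbl1/Crym/Cldn11 cells had 2 of 47 tested members higher than the rest and 14 lower, beside 3.17% and 4.66% of all genes. The higher ones were Cdh10 at 209, 30.9, 116 and 94.6 CPM (2.04 ± 0.22, edgeR adjusted p = 1.53e-18) and Cdh9, a type II cadherin, at 72.97, 18.5, 20.1 and 0 CPM (2.61 ± 0.51, edgeR adjusted p = 1.13e-05). Cdh9 rested on control 1, without which its difference was 1.54 (edgeR adjusted p = 0.418). Pcdh9 was at 176, 142, 337 and 234 CPM, against 672 CPM in the other mesenchyme (-1.67 ± 0.13, edgeR adjusted p = 4.07e-33).

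Preosteoblast cells, mesenchyme on the way to bone, had 2 of 49 tested members higher than the rest and 10 lower, beside 4.52% and 5.45% of all genes. Cdh12 was at 85.9, 65.99, 102 and 95.8 CPM (0.90 ± 0.11, edgeR adjusted p = 7.19e-06). Cdh10 was the other (0.87 ± 0.23, edgeR adjusted p = 0.0157), and it was lost without control 1 (edgeR adjusted p = 0.265) or mutant 1 (edgeR adjusted p = 0.0592). Shox2 cells had 2 of 48 tested members higher than the rest and 4 lower, beside 1.76% and 1.36% of all genes. Both higher members were weakly held: Pcdh15 at 149.5, 246, 182 and 161 CPM (0.61 ± 0.15, edgeR adjusted p = 0.0299) was lost without control 1 (edgeR adjusted p = 0.0884), and Cdh11 (0.17 ± 0.04, edgeR adjusted p = 0.0427) without any 1 of the 4 libraries (edgeR adjusted p = 0.0560 to 0.292). Pax9/Osr2 cells had 1 of 48 tested members higher than the rest and 7 lower, beside 2.23% and 3.71% of all genes. Pcdh17 was at 50.9, 89.6, 121 and 28.9 CPM (0.92 ± 0.22, edgeR adjusted p = 0.00609), and without mutant 1 it did not pass (edgeR adjusted p = 0.235).

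**Figure D2:**
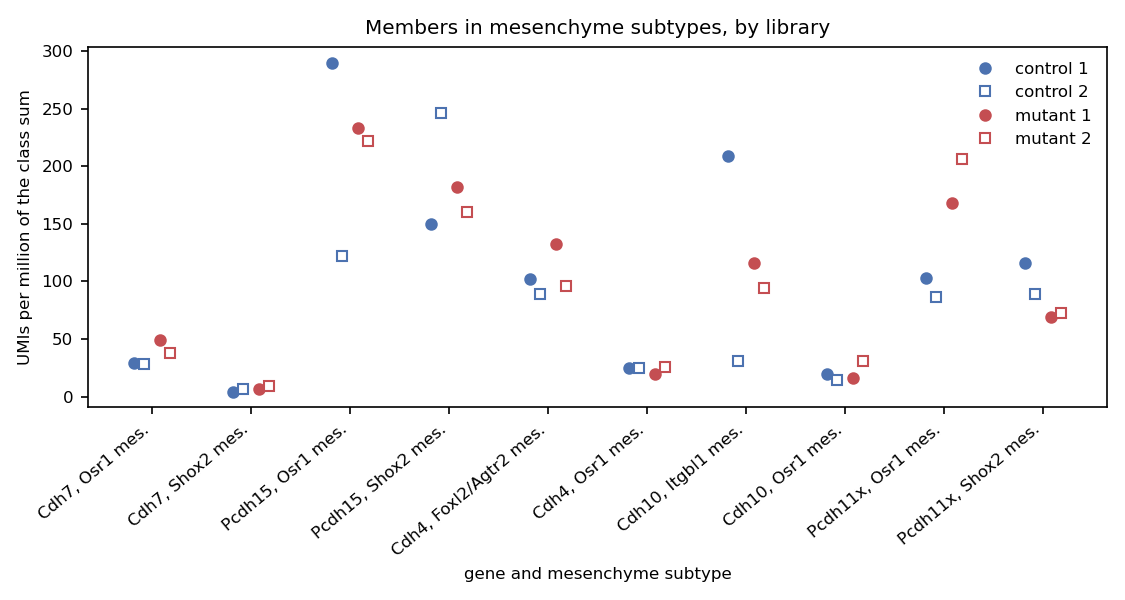
Levels of 5 members in selected mesenchyme subtypes (horizontal axis), in CPM of the class (vertical axis), with 1 point per library, controls in blue and mutants in red, circles for replicate 1 and squares for replicate 2. Of the subtypes plotted Cdh7 was higher in Osr1 cells at 28.1 to 49.05 CPM and Cdh4 in Foxl2/Agtr2 cells at 88.9 to 133 CPM.

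Protocadherins outside the clusters reached many classes. Pcdh7, a delta-1 protocadherin, stood at 516, 576, 567 and 566 CPM in olfactory epithelium. In skeletal muscle it was at 419, 615, 353 and 394 CPM (1.13 ± 0.11, edgeR adjusted p = 6.64e-23). Mural cells had 4 of 51 tested members higher than the rest and 15 lower, beside 6.69% and 11.1% of all genes. They held Pcdh1 at 40.9, 8.69, 40.5 and 16.9 CPM (2.96 ± 0.55, edgeR adjusted p = 1.32e-05) and Pcdh18 at 189, 217, 69.4 and 88.9 CPM (1.28 ± 0.20, edgeR adjusted p = 2.27e-07). Macrophages had 1 of 49 tested members higher than the rest and 39 lower, beside 21.9% and 36.0% of all genes. The higher one was Cdh23, the partner of Pcdh15 in tip links, at 17.9, 19.5, 7.02 and 17.9 CPM (2.52 ± 0.43, edgeR adjusted p = 1.96e-06). Pcdh15 had no UMI in macrophages.

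Genes of the protocadherin clusters were thinly read. The 19 beta members summed to 40.5, 35.9, 41.1 and 37.3 CPM in mesenchyme and to 1.79, 0, 0 and 0 CPM in macrophages. The 19 gamma members summed to 36.4, 40.04, 35.7 and 42.97 CPM in mesenchyme. Cells of the neuronal lineage held 58.4, 34.2, 42.6 and 90.3 CPM of the beta members, a range that spans that of mesenchyme. Single genes stayed low in mesenchyme, with Pcdhb7 at 4.68 to 5.05 CPM, Pcdhb17 at 2.68 to 4.04 CPM, Pcdhga12 at 4.80 to 6.93 CPM and Pcdhgc4 at 4.11 to 4.68 CPM. Gamma genes share 3′ constant exons, so a 3′ read may not tell them apart and their single and summed values are uncertain. The same holds for the alpha genes.

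The number of members in a single cell was counted after each cell was thinned at random to 3000 UMIs, so that cells of different depth can be compared. Mesenchymal cells then showed 3.53 to 3.71 members in the mean, by library, and 5.11 to 6.28 before thinning, with 53 to 225 shallower cells a library left out. Osr1 cells showed 3.74 to 4.32, endothelial cells 2.56 to 3.12, glia 2.21 to 3.06, basal keratinocytes 1.98 to 2.05 and suprabasal keratinocytes 1.27 to 1.58. Macrophages, where 39 of 49 tested members were lower than in the rest, showed 0.0303 to 0.176. A member of the beta or gamma cluster was seen in 20.2 to 21.7% of mesenchymal cells.

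**Figure D3:**
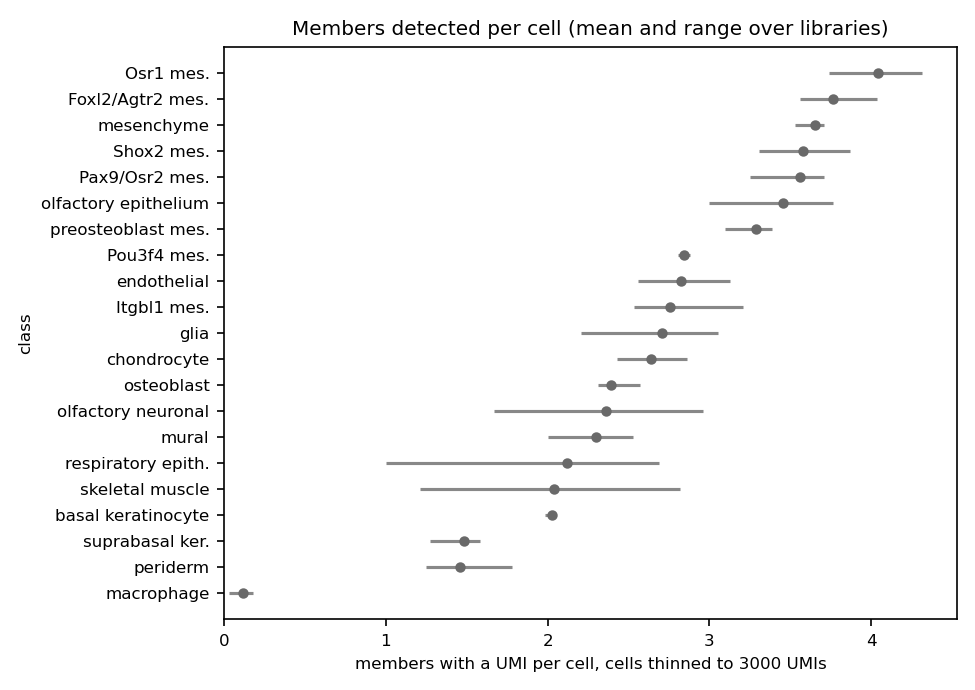
Members detected per cell (horizontal axis) in each class (vertical axis) after thinning to 3000 UMIs, with the mean over libraries and the range over libraries. Osr1 mesenchyme lay at 3.74 to 4.32 and macrophages at 0.0303 to 0.176.

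Pairs of members were also read in the same cells. Cdh5 and Pcdh17 were both seen in 50%, 70.8%, 71.4% and 58.5% of thinned endothelial cells, where the product of the single shares gave 43.97%, 72.6%, 72.3% and 60.2%. Cdh2 and Cdh11 were together in 44.7%, 57.1%, 40% and 50.9% of osteoblasts, beside products of 44.8%, 58.05%, 37.3% and 50.5%. Observed shares lay on both sides of the products. In olfactory epithelium Cdh1 and Cdh2 were together in 20.9%, 33.3%, 25.8% and 17.5% of cells, beside products of 28.6%, 44.4%, 23% and 21.4%, with 3 cells in control 2. Cdh11 and Pcdh9 shared 36.9%, 40.7%, 38.4% and 38.8% of mesenchymal cells, beside 36.3%, 40.01%, 38.6% and 38.5%. Cdh2 and Cdh6 shared 25.6%, 58.3%, 23.3% and 22.2% of glia, beside 16.8%, 59.03%, 15.6% and 19.4%. As a measure of free RNA, Cdh1, Cdh5 and Cdh6 were seen in 0 thinned macrophages of each library, and none of the 21 members followed by cell in more than 3.03% of them; before thinning their median depth was 7520 to 10314 UMIs, against 5220 to 8365 in mesenchyme and 7307 to 17296 in endothelial cells.

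Mutants and controls differed in few members. Over all retained cells 0 of 70 members passed (edgeR adjusted p below 0.05), as did 0% of 18080 genes, and DESeq2 called 0. An unadjusted p below 0.05 was found for 11 of the 70 members and for 4.88% of all genes. In such sums fewer cells of a type and less RNA per cell cannot be told apart. Levels of 32 members did not overlap between controls and mutants, 21 higher and 11 lower in mutants, or 45.7%, where 38.0% of all genes of at least 50 UMIs did not overlap. The smallest p was that of Pcdh11x (ENSMUSG00000034755, chromosome X, 120290259 to 120910619, plus strand, GRCm38), an X-linked delta-1 protocadherin, at 69.9 and 72.7 CPM (controls) and 107 and 91.6 CPM (mutants) (0.44 ± 0.11, edgeR adjusted p = 0.909). Xist, from the same chromosome, was at 910 to 1425 CPM in every library. Across the 13 classes and subtypes with at least 20 cells in every library, 2 of 239 tests of members passed, beside 0.0650% of the tests of all genes. Both were of Cdh2.

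In endothelial cells Cdh2 stood at 82.2 and 202 CPM (controls) and 17.96 and 16.3 CPM (mutants). Both mutants lay below both controls, and the log2 difference was -3.01 ± 0.41, edgeR adjusted p = 0.00202, where 0.218% of all genes were called and 0.193% were called lower. The mutant effect on Cdh2 was lower in endothelial cells than in the other gated cells by a log2 difference of -2.96 ± 0.33, edgeR adjusted p = 1.82e-15, a difference called for 0.536% of all genes in either direction. Both tests rest on the same libraries, so the smaller p-value of this difference is not stronger evidence from replicates. The UMIs sat in few cells, since 5 of 57 and 6 of 28 control cells held at least 5 Cdh2 UMIs, against 0 of 30 and 0 of 65 mutant cells. Endothelial cells were also divided by Slc38a5, Mfsd2a, Slco1c1 and Foxq1, genes of vessels with a blood-brain barrier, a division chosen after the values were seen. Cells with UMIs of at least 2 of the 4 genes numbered 4 of 57 and 3 of 28 in controls and 0 of 30 and 0 of 65 in mutants, and the 0 counts allow shares of up to 10.0% and 4.62%. These 4 and 3 cells held 65 of the 83 and 63 of the 102 control UMIs of Cdh2. Without them Cdh2 was at 19.2 and 95.9 CPM in controls beside the same mutant values, and the difference was -1.57 ± 0.55 (edgeR adjusted p = 0.613).

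Cdh5 stood at 864 and 858 CPM (controls) and 1017 and 764 CPM (mutants) in the same cells, and its groups overlapped. The 7 mesenchyme markers summed to 19.8, 53.4, 48.5 and 206 CPM in endothelial cells, and the 4 haemoglobin genes to 112, 11.9, 214 and 2762 CPM, both highest in mutant 2. The 9 mural markers were at 54.4, 23.7, 37.7 and 34.96 CPM, and 1 of the 13 endothelial markers was lower in both mutants than in both controls. The 9 dissociation genes summed to 1596, 1480, 1656 and 1914 CPM and were highest in the mutants, 4 of them being higher in both mutants than in both controls. Among them the heat shock gene Hspa1a was at 27.7, 0, 53.9 and 82.7 CPM and Hspa1b at 26.7, 1.98, 66.5 and 64.1 CPM. With any 1 library left out the Cdh2 difference was -3.57 to -2.31. The part of these marker and stress genes in the result was not tested.

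**Figure D4:**
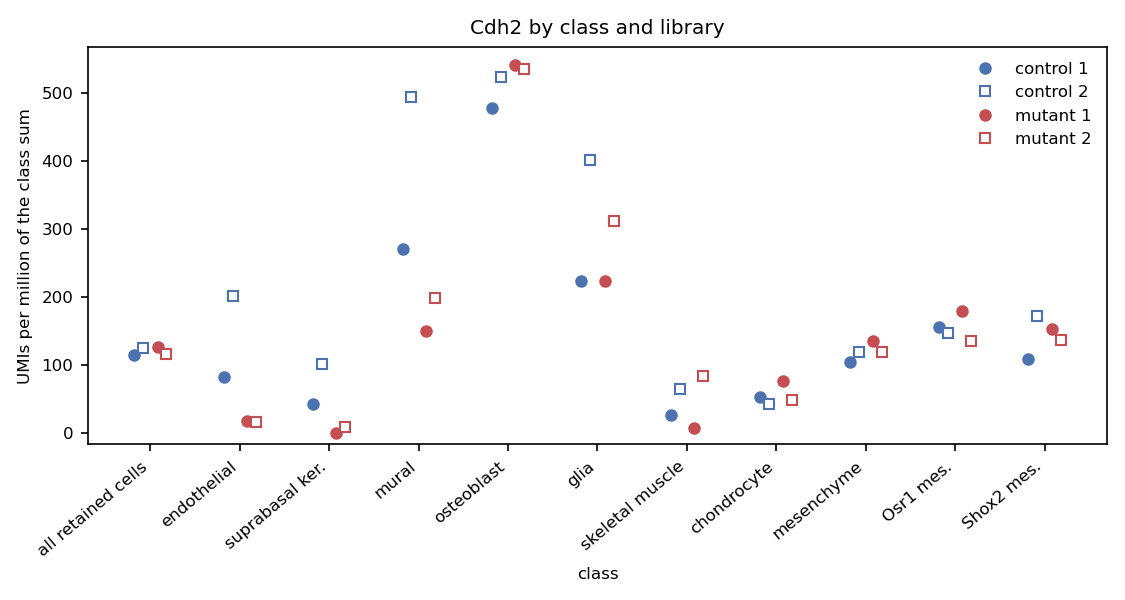
Cdh2 by class (horizontal axis) and library, in CPM of the class (vertical axis), with controls in blue and mutants in red, circles for replicate 1 and squares for replicate 2. Both mutants lie below both controls in endothelial, suprabasal and mural cells. They lie above both controls in osteoblasts, at 479 to 541 CPM over the 4 libraries. In mesenchyme they do so narrowly (118.85 CPM in control 2, 119.28 CPM in mutant 2).

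In suprabasal keratinocytes Cdh2 was at 42.4 and 101 CPM (controls) and 0 and 7.90 CPM (mutants) (-4.08 ± 0.72, edgeR adjusted p = 0.00237), where 0.652% of all genes were called and 0.457% were called lower. Ctnna2, the alpha-catenin of neurons, was the 1 gene of a list of cadherin partners to pass between mutants and controls in any class. In suprabasal cells 30 genes of that list were tested. Ctnna2 was at 34.9 and 39.5 CPM (controls) and 2.19 and 0 CPM (mutants) (-4.69 ± 1.03, edgeR adjusted p = 0.0194). The Ctnna2 call was lost without control 2 (edgeR adjusted p = 0.158) or mutant 1 (edgeR adjusted p = 0.101), and without control 1 it was not tested. The Cdh2 call was kept without any 1 library, at -7.99 without mutant 2 to -3.11 without mutant 1. Single cells carried both values. Of the control UMIs of Cdh2, 30 of 34 and 21 of 23 came from 1 cell in each library, as did 23 of 28 and 9 of 9 of those of Ctnna2. With stricter limits on cells the edgeR adjusted p of Cdh2 was 0.0522 and with DESeq2 the adjusted p was 0.599, and without the leading cell of each library the gene was too low to be tested. In suprabasal cells the mesenchyme markers summed to 26.2, 17.6, 109.6 and 137 CPM, the 6 glia markers to 78.6, 439, 105 and 118 CPM and the 9 dissociation genes to 5454, 6037, 7929 and 7412 CPM; their part in the result was not tested.

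Classes with 10 to 19 cells in the smallest library were tested after the data were seen. In mural cells 1 of 6 tested members passed, beside 1.80% of all genes called and 0.854% called lower. Pcdh18 (ENSMUSG00000037892, chromosome 3, 49743296 to 49757325, minus strand, GRCm38), a delta-2 protocadherin, was at 189 and 217 CPM (controls) and 69.4 and 88.9 CPM (mutants) (-1.33 ± 0.32, edgeR adjusted p = 0.0406). Both mutants lay below both controls, but leaving out any 1 library ended the call, with differences of -1.58 to -1.17 (edgeR adjusted p = 0.0554 to 0.799), as did leaving out the cell with most Pcdh18 UMIs in each library (edgeR adjusted p = 0.0765). Mural Cdh2 was at 270.3 and 495 CPM (controls) and 150.4 and 199 CPM (mutants), and its mutant effect differed from that in the other gated cells by -1.12 ± 0.28, edgeR adjusted p = 0.0134, where 0.697% of all genes were called. Glia markers summed to 151, 287, 28.9 and 76.2 CPM in mural cells, with 4 of 6 at 0, and dissociation genes to 2772, 2827, 3806 and 4642 CPM; their part was not tested. The 250 bases before the Pcdh18 start (RefSeq, GRCm38.p6, chr3:49757317-49757566, minus strand) are shown because Pcdh18 was the called mural member, with its match to ACAANG, on the other strand, in capitals, 225 bases before the start.
Pcdh18: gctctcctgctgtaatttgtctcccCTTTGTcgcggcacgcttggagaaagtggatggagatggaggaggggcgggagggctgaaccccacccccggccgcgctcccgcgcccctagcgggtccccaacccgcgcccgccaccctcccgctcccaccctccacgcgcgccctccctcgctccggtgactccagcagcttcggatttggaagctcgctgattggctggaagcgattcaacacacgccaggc
In glia 0 of 7 tested members passed (0% of all genes), and Pcdh7 was at 84.2 and 259 CPM (controls) and 218 and 465 CPM (mutants) (0.92 ± 0.53, edgeR adjusted p = 0.984). In skeletal muscle 0 of 7 passed (0%), with Pcdh7 nearest (-0.50 ± 0.26, edgeR adjusted p = 1.00). In Itgbl1/Crym/Cldn11 cells 0 of 7 passed (0.106%), with Pcdh9 nearest (0.83 ± 0.31, edgeR adjusted p = 0.972).

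In mesenchyme 0 of 69 tested members passed between mutants and controls, as did 0% of 15951 genes, and DESeq2 called 0. An unadjusted p below 0.05 was found for 7 of the 69 and for 7.75% of all genes. Levels of 32 of the 64 members with at least 50 UMIs there did not overlap (beside 40.9% of all genes). Cdh7 had the smallest p, at 9.11 and 10.3 CPM (controls) and 18.8 and 13.99 CPM (mutants) (0.72 ± 0.18, edgeR adjusted p = 0.370). In Osr1 cells 0 of 26 passed (0.0438%), and Pcdh11x was at 103 and 86.6 CPM (controls) and 168 and 206 CPM (mutants) (0.94 ± 0.16, edgeR adjusted p = 0.146; DESeq2 adjusted p = 0.0174). In Shox2 cells 0 of 21 passed (0%), and Pcdh11x was at 116 and 88.9 CPM (controls) and 69.4 and 72.4 CPM (mutants) (-0.59 ± 0.18, edgeR adjusted p = 0.555). Its groups did not overlap in either subtype, with mutants above controls in Osr1 cells and below them in Shox2 cells. The mutant effect on Pcdh11x in Shox2 cells differed from that in the other mesenchyme by -1.07 ± 0.15, edgeR adjusted p = 7.20e-04, where 0.239% of all genes were called. With the stricter gate that difference was -0.71 (edgeR adjusted p = 0.402). In Osr1 cells the same difference was 0.66 ± 0.16, edgeR adjusted p = 0.195.

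The other classes had 0 members called by edgeR or by DESeq2. In basal keratinocytes (0.0635% of all genes called) Pcdh9 was at 99.2 and 80.9 CPM (controls) and 173 and 154 CPM (mutants) (0.83 ± 0.15, edgeR adjusted p = 0.112). In Foxl2/Agtr2 cells (0%) Pcdh15 was at 65.4 and 19.6 CPM (controls) and 173 and 109.5 CPM (mutants) (1.55 ± 0.38, edgeR adjusted p = 0.418). Controls and mutants did not overlap in either, and both failed the correction. In chondrocytes (0%) Cdh10 had the smallest p (1.58 ± 0.39, edgeR adjusted p = 0.541), in osteoblasts (0%) Pcdh11x (-1.36 ± 0.51, edgeR adjusted p = 1.00) and in Pax9/Osr2 cells (0.0174%) Cdh12 (2.13 ± 0.57, edgeR adjusted p = 0.800). In Pou3f4 cells (0%) it was Cdh18 (-1.20 ± 0.48, edgeR adjusted p = 0.786) and in preosteoblast cells (0.0109%) Pcdh7 (-0.71 ± 0.21, edgeR adjusted p = 0.748). Members with an unadjusted p below 0.05 numbered 2 of 18 in basal keratinocytes, 2 of 20 in Foxl2/Agtr2 cells, 2 of 18 in chondrocytes and 1 of 10 in osteoblasts. They numbered 2 of 11 in Pax9/Osr2, 3 of 12 in Pou3f4 and 1 of 18 in preosteoblast cells. In each of these 7 classes this was a larger share than that of all genes, 3.63% to 6.12%, though few members were tested. Such members numbered 8 of 26 in Osr1 cells, beside 7.74% of all genes, and 5 of 21 in Shox2 cells, beside 5.10%. In macrophages (0.0784%) 0 members were high enough to be tested.

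Genes that work with cadherins were followed as a list of catenins, desmosome genes, large cadherins, sheddases, repressors of cadherin transcription and actin regulators. Suprabasal keratinocytes had 21 of 46 higher and 13 lower, led by genes of desmosomes: Dsp (4.58 ± 0.15, edgeR adjusted p = 9.55e-18), Dsc3 (5.52 ± 0.19, edgeR adjusted p = 1.81e-17), Pkp1 (5.13 ± 0.21, edgeR adjusted p = 5.77e-16) and Jup (4.09 ± 0.17, edgeR adjusted p = 5.41e-16). Mesenchyme had 12 of 46 higher and 27 lower, with Dsp (-7.04 ± 0.11, edgeR adjusted p = 1.84e-08) and Dsc3 (-6.98 ± 0.15, edgeR adjusted p = 2.84e-08) among the lower ones. Osteoblasts had 7 of 46 higher and 19 lower, and the large cadherin Fat3 was higher (3.54 ± 0.09, edgeR adjusted p = 3.48e-27). Mural cells had 5 of 46 higher and 16 lower, with the alpha-catenin Ctnna3 higher (4.05 ± 0.23, edgeR adjusted p = 4.27e-26). The neuronal lineage had 7 of 46 higher and 20 lower, with Ctnna2 (3.02 ± 0.20, edgeR adjusted p = 1.26e-51) and the actin regulator Cyfip2 (4.18 ± 0.27, edgeR adjusted p = 2.35e-51) higher. Shares of all genes called are those given with the members of each class. Twist1, which is on this list, was also among the mesenchyme markers used for gating, so any call of it in these counts was partly set by the gates.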

How the data were processed

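Members and gene lists were chosen with earlier results of these data known. The deposited files are per-library matrices of UMI counts, made by the authors with Cell Ranger 8.0.1 per the file headers, while the submitters' processing notes name Cell Ranger 4, Seurat 4.3.0 and build mm10; whether introns were counted is not given in the sources used here. A cell needed 500 genes or more and no more than 10% mitochondrial UMIs. Classes were gated by 2 to 5 markers per list. The Pou3f4, Osr1, Foxl2/Agtr2 and Shox2 subtypes of mesenchyme needed only a UMI of a named gene, the other subtypes 2 or 3 markers. Cells meeting conflicting class gates were left out, and no doublet caller was run, so unmarked doublets remain. Sums of counts by library and class were fitted over all genes with edgeR 4.0.16 in R 4.3.3 (TMM, filterByExpr, quasi-likelihood, Benjamini-Hochberg at 0.05): mutant against control in classes of at least 20 cells a library, class against the rest with the library as block in classes of at least 5, and the class by genotype term. Simulated data were used to check the mutant test in mesenchyme and in endothelial cells, and the test of endothelial cells against the rest. The class by genotype term and the smaller classes were not checked in this way. Standard errors are the log2 difference divided by the root of F; exact 95% intervals and the limit of 3 counts for a count of 0 cover counting error only.

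Named were, by class, up to 3 members with the highest difference among those past the threshold with at least 20 UMIs, the called or smallest-p member of each mutant comparison, the 2 members with most UMIs of each subfamily, and up to 4 partner genes a comparison; others are shown for a combination and were chosen after their values were seen. Alternatives were DESeq2 1.42.0 and its size factors, no filter, stricter cells (1000 genes, 5% mitochondrial) and gates, no cells above 2 times the median UMIs, blocks, each library left out and, chosen after seeing the data, classes of 10 to 19 cells, leading cells left out and brain-vessel cells left out. Gene positions are from GENCODE on GRCm38 and promoter windows from RefSeq (GRCm38.p6).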

Additional observations from a re-analysis of the deposited data

Results flagged for a closer look

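The results listed here are those in which the effect of the mutant genotype in a class differed from its effect in the rest by a test of that difference (edgeR, class by genotype); values are differences on the log2 scale with their standard error. For Cdh2 the difference was -4.11 ± 0.63, edgeR adjusted p = 1.94e-07 in suprabasal keratinocytes, -2.96 ± 0.33, edgeR adjusted p = 1.82e-15 in endothelial cells and -1.12 ± 0.28, edgeR adjusted p = 0.0134 in mural cells. In endothelial cells 65 of 83 and 63 of 102 control UMIs of Cdh2 came from 4 and 3 cells with brain-vessel genes. Without those cells the direct mutant test did not pass, and the difference given here was not refitted without them. In suprabasal cells the Cdh2 difference stayed called without any 1 library (-12.63 without mutant 2, where the remaining mutant was at 0, to -3.01 without mutant 1) and was lost with the stricter gate (-0.85) or without cells of high UMIs (-0.94). Ctnna2, an alpha-catenin, differed in suprabasal keratinocytes (-4.23 ± 0.92, edgeR adjusted p = 0.00225), where most of its control UMIs came from 1 cell in each library; it was lost without control 1 (edgeR adjusted p = 0.124) or mutant 2 (edgeR adjusted p = 0.136). Pcdh9 in suprabasal keratinocytes was at 19.96 and 87.7 CPM (controls) and 13.2 and 2.63 CPM (mutants) (-2.41 ± 0.54, edgeR adjusted p = 0.00353), and the difference was -1.59 without control 2 (edgeR adjusted p = 1.00) and -1.72 without mutant 2 (edgeR adjusted p = 0.289). Without mutant 1 it was -4.08, still called. Twist1 in suprabasal keratinocytes was at 0 and 0 CPM (controls) and 4.38 and 39.5 CPM (mutants), and its fitted difference of 10.77 ± 2.10, edgeR adjusted p = 4.82e-04 is no bound, since both controls were at 0. It was lost without control 1, control 2 or mutant 2 (edgeR adjusted p = 0.239 to 0.792). Twist1 is also 1 of the mesenchyme markers used for gating.

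Among mesenchyme subtypes Pcdh11x differed in Shox2 cells (-1.07 ± 0.15, edgeR adjusted p = 7.20e-04), with 89.5, 81.2, 131 and 116 CPM in the other mesenchyme. Pcdh9 in Shox2 cells was at 586 and 635 CPM (controls) and 513 and 488 CPM (mutants) (-0.44 ± 0.07, edgeR adjusted p = 0.00569), and without control 1 it missed the threshold at -0.38 (edgeR adjusted p = 0.0773). Fat3, a large cadherin, was at 205 and 105 CPM (controls) and 63.9 and 123 CPM (mutants) in Pou3f4 cells (-1.38 ± 0.21, edgeR adjusted p = 3.46e-07). It was lost without control 1 (-1.00, edgeR adjusted p = 0.281) or mutant 1 (-0.81, edgeR adjusted p = 0.620). Cdh18 in Pax9/Osr2 cells was at 2.21 and 0 CPM (controls) and 54.9 and 10.8 CPM (mutants) (4.68 ± 0.90, edgeR adjusted p = 2.60e-04), and the difference did not pass without mutant 1 (2.81, edgeR adjusted p = 1.00) or control 2 (3.99, edgeR adjusted p = 0.0566). Without control 1, where the remaining control was at 0, it was 11.23. Cdh4 in mural cells, a class tested after the data were seen, was at 18.9 and 0 CPM (controls) and 28.9 and 102 CPM (mutants) (2.90 ± 0.66, edgeR adjusted p = 0.00402). The mural differences were not refitted with libraries left out.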

How the results depend on the processing

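The count of 2 member calls between mutants and controls over 13 classes became 16 without a filter on low counts, 4 with the replicate number as block, and 1 with stricter cell limits, a stricter gate or without cells of high UMIs; with 1 library left out it was 3 to 16, where the lone library of a genotype is assumed to vary like the other genotype's. By class, no filter gave 1 call in basal keratinocytes, chondrocytes, osteoblasts, Osr1 and Foxl2/Agtr2 cells, 2 in suprabasal and Pax9/Osr2 cells and 6 in mesenchyme. The suprabasal call went to 0 with stricter cells, the stricter gate, DESeq2, without cells of high UMIs or without the leading cell, and the endothelial call to 0 without the brain-vessel cells. DESeq2 gave 1 call in Osr1 cells. With 1 library left out the counts were 0 to 2 over all cells, 0 to 2 in basal, 1 to 2 in suprabasal, 0 to 2 in chondrocytes, 0 to 1 in osteoblasts, 0 to 4 in mesenchyme, 0 to 5 in Osr1, 0 to 1 in Foxl2/Agtr2, 0 to 2 in Shox2, 0 to 1 in Pax9/Osr2 and 0 to 1 in preosteoblast cells. Over genes, the difference between the 2 controls correlated with that between the 2 mutants at -0.09 to 0.08. With 1 such difference per genotype this cannot tell whether same-numbered libraries shared a batch. The replicate block gave 1 call in basal (Pcdh9) and 1 in Foxl2/Agtr2 cells (Pcdh15). The 400 calls of classes against the rest stayed within 333 to 417. Without the library as a block Osr1 calls were 4 (12 with it), Shox2 0 (6) and Pax9/Osr2 4 (8), and Cdh11 in chondrocytes missed the threshold (edgeR adjusted p = 0.0759). No filter gave 7 in Foxl2/Agtr2 and 10 in Shox2 cells, Shox2 had 3 without cells of high UMIs and 3 to 5 with 1 library left out, and Pax9/Osr2 had 5 with the stricter gate. Celsr1 in Shox2 cells turned from 1.46 to -0.15 with the stricter gate; the cause was not tested. The 6 differences of the mutant effect among members (0.208% of all tests of genes over the 13 classes) became 16 without a filter and 10 to 24 with 1 library left out. By class, no filter gave 1 in basal, 2 in chondrocytes, 2 in mesenchyme, 3 in Osr1 and 1 in Foxl2/Agtr2 cells; the stricter gate gave 0 in suprabasal, 1 in osteoblasts, 3 in Pou3f4 and 0 in Shox2 cells; without cells of high UMIs there were 0 in suprabasal, 1 in osteoblasts and 3 in Pax9/Osr2, and stricter cells gave 2 in Pax9/Osr2. With 1 library left out these were 0 to 7 in Foxl2/Agtr2, 0 to 4 in Osr1, 0 to 1 in Pax9/Osr2, Pou3f4, osteoblast and preosteoblast cells, 0 to 2 in basal and chondrocytes, 1 to 2 in endothelial and suprabasal cells and 0 to 5 in mesenchyme. Members per mesenchymal cell were 2.90 at 2000 UMIs and 5.66 unthinned. For single named genes and class means of members per cell, 1323 values counted as unchanged, which for results not called allowed a change of sign. Beside them 86 lost and 16 gained a call, 1 called difference reversed, and 39 class means of members per cell moved with the thinning depth. Shallow classes limit what could be tested, with 0 members in macrophages and 6 in suprabasal cells.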
